A study of Vitis vinifera with 8 samples.

Results

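Genes that move auxin between cells or tie it up in conjugates were followed in young grapevine leaves (*Vitis vinifera* cv Sultana) with and without overexpression of the NAC transcription factor VviNAC33. They were the influx carrier AUX1 (VIT_13s0067g00330), auxin efflux carrier protein 10 (VIT_08s0040g01220), an auxin-responsive GH3 gene (VIT_07s0005g00090) and an indole-3-acetate beta-glucosyltransferase, here IAGLU (VIT_06s0004g07230). Each was read by 1 probe, so that they make up 4 of the 34369 probes on the array other than controls and 4 of the 26579 that were bright enough to be tested. The genes were picked for their opposite directions between the groups and for their detection on each array. Their differences between the groups are therefore given as a description without a test, and nothing is supported with them.

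Auxin (indole-3-acetic acid) enters plant cells partly through AUX1-type carriers in the plasma membrane and leaves them through efflux carriers, and the placing of these proteins sets the direction in which the hormone travels through a tissue. The pool of free auxin also depends on conjugation. GH3 enzymes join auxin to amino acids, glucosyltransferases such as IAGLU join it to glucose, and hydrolases can release it again. Many GH3 genes are themselves switched on by auxin, as are the Aux/IAA repressors and the SAUR genes, whose products are known for their part in cell expansion.

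The Control group held 4 arrays, from plantlets infiltrated with *Agrobacterium tumefaciens* C58C1 that carried an empty pK7WG2 vector with a non-coding sequence. The OXNAC33 group held 4 arrays, from plantlets infiltrated with the same strain carrying 35S:VviNAC33, in which a viral promoter active in most plant cells drives the gene. Plants of both groups were raised in vitro, were 6 weeks old per the labels and were sampled 7 days after vacuum infiltration. Of 8 plants infiltrated for overexpression, the 4 with the strongest transgene signal by quantitative PCR were hybridized, while 7 plants were infiltrated for the control. Transient infiltration can leave cells untransformed, and a bulk leaf sample cannot tell fewer cells of one type from less RNA per cell.

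Levels are log2 intensities against the 75th percentile on that array, so that 0 is a bright probe and each unit is a doubling. Between 73.8% and 84.1% of the probes were well above background. Replicates 1 and 2 of both groups were scanned on date 1, replicate 3 on date 2 and replicate 4 on date 3, and the arrays came from 5 slides. Replicate 4 of both groups shared a slide, whereas every other slide held 1 group only, so that apart from replicate 4 slide and group cannot be told apart. Control replicates 1 and 2 shared a slide, as did OXNAC33 replicates 1 and 2. The correlation within slides, estimated by limma over tested probes, was 0.656. Tests and SEs without a slide block treat the arrays of a group as independent. The arrays labelled OXNAC33 read 1.15, 0.59, -0.12 and -1.13 for VviNAC33 on replicates 1 to 4, and replicates 3 and 4 lay inside the Control range of -1.37 to 0.14. The group difference of VviNAC33 (VIT_19s0027g00230) was 0.90 (SE 0.52), with a two-sided exact permutation p = 0.2 over 4 and 4 arrays and a limma adjusted p = 0.664. Replicate number was also entered in the model as a block, here and below, although a pairing of the arrays by number is not established. With this block the unadjusted limma p moved from 0.120 to 0.00757 and the adjusted p to 0.279. With slide as a random block instead, the difference was 0.61 and the unadjusted limma p was 0.221. Without OXNAC33 replicate 4 and with no block the difference was 1.32, and it also passed an unadjusted limma p of 0.05. Leaving out the lowest array of the higher group had to raise the difference. The OXNAC33 plants had also been selected for their VviNAC33 level, so none of these tests is independent of that choice. All values below include the libraries labelled OXNAC33 replicates 3 and 4 except where a removal is stated.

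AUX1, the proton-driven importer of auxin, was lower in OXNAC33. Its levels on Control replicates 1 to 4 were -2.12, -2.24, -1.98 and -1.40, and on OXNAC33 replicates 1 to 4 they were -2.35, -2.63, -3.52 and -2.59. Every OXNAC33 array lay below every Control array, but only 0.11 parted the highest OXNAC33 array, replicate 1, from the lowest Control array, replicate 2. The lowest array of all was OXNAC33 replicate 3. Group means were -1.94 ± 0.37 (SD, n = 4) and -2.77 ± 0.51 (SD, n = 4), a difference of -0.84 (SE 0.30), or 1.79-fold lower. The spot was well above background on all 8 arrays, with a median signal between 6.70 and 18.9 times the local background. Within scan dates the difference was -0.31 on date 1, -1.54 on date 2 and -1.19 on date 3, so that date 1, with 2 arrays per group, gave the smallest value.

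Auxin efflux carrier protein 10 was near the limit of detection. The levels were -6.49, -4.91, -5.94 and -5.99 on Control replicates 1 to 4, and -8.79, -6.95, -7.85 and -8.97 on OXNAC33 replicates 1 to 4. As measured, all 4 Control arrays were higher than all 4 OXNAC33 arrays, with a gap of 0.45 between Control replicate 1 and OXNAC33 replicate 2. That gap rests on dim OXNAC33 spots. The lowest level counted as above background was -6.83, -6.88, -7.17 and -6.78 on OXNAC33 replicates 1 to 4. The spot was well above background on 4 Control arrays and on 0 OXNAC33 arrays. Of all probes tested, 16 (0.0602%) had that pattern of detection and 0 had the opposite one. The carrier entered the tested probes through its Control arrays alone, since at least 4 of 8 arrays had to be well above background. In raw terms the background-corrected signal was 30.7, 75.1, 26.5 and 21.5 in Control and 3.45, 11.5, 7.54 and 3.45 in OXNAC33. The spot median stood 2.56 to 3.37 times above the local background in Control and 1.52 to 1.89 times in OXNAC33, and these ranges did not overlap.

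Because no OXNAC33 spot of this carrier was well above background, its level there is only a rough bound. Another deposited mark, positive and significant, was set on OXNAC33 replicates 1 to 3 but not on replicate 4. With each OXNAC33 spot set to the lowest signal that counted as above background on its array, the carrier was 2.12-fold lower in OXNAC33. The bound is not strict, since some spots not well above background were brighter than the lowest signal counted as above it. This held on Control replicates 2 and 4 and also on OXNAC33 replicate 2, where the bound was applied. There the spot of VIT_14s0108g00020 read -6.84, not well above background, where the lowest level counted as above it was -6.88. The measured means were -5.83 ± 0.67 (SD, n = 4) and -8.14 ± 0.94 (SD, n = 4), and their difference was -2.31 (SE 0.50). Other settings made this difference smaller. It was -0.61 with a model-based background correction (normexp), -1.08 with dim values raised to the bound and -1.41 with array weights. Within scan dates the measured difference, with the OXNAC33 spots below the bound, was -2.17, -1.91 and -2.98. The share of probes above background was 84.0%, 84.1%, 73.8% and 73.8% on Control replicates 1 to 4, and the OXNAC33 arrays lay between these values. The part of this in the result was not tested.

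**Figure D1:**
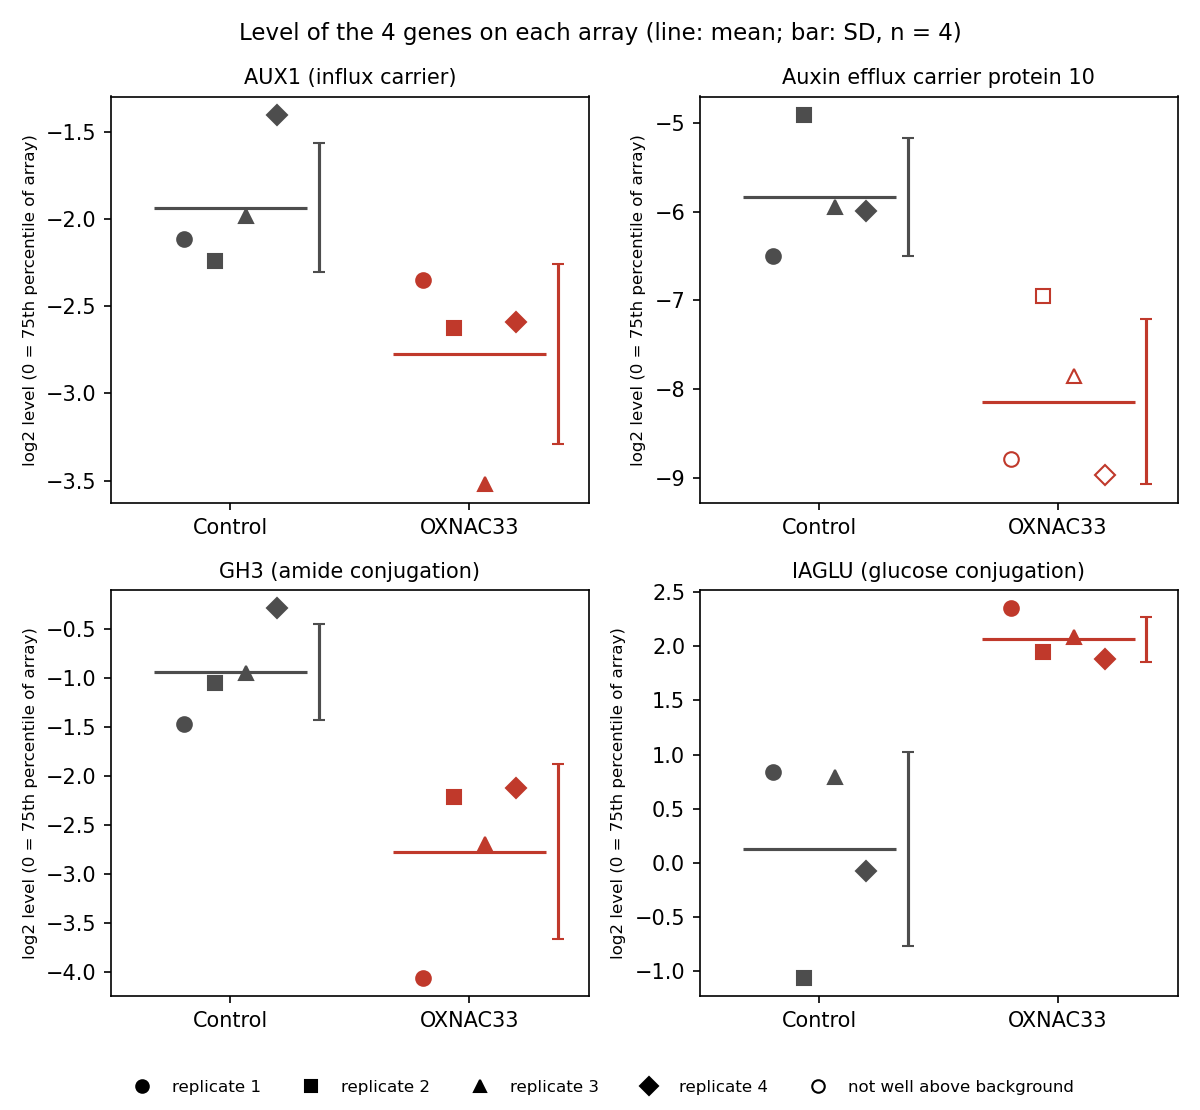
Log2 level of each of the 4 genes on every array, against the 75th percentile on that array, for Control (grey) and OXNAC33 (red). Symbols give the replicate number, open symbols are spots not well above background, lines are means and bars are SD (n = 4). In every panel the groups do not overlap, with the narrowest gap for AUX1 (0.11) and the widest for IAGLU (1.04). For the efflux carrier this rests on OXNAC33 spots not well above background.

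**Figure D2:**
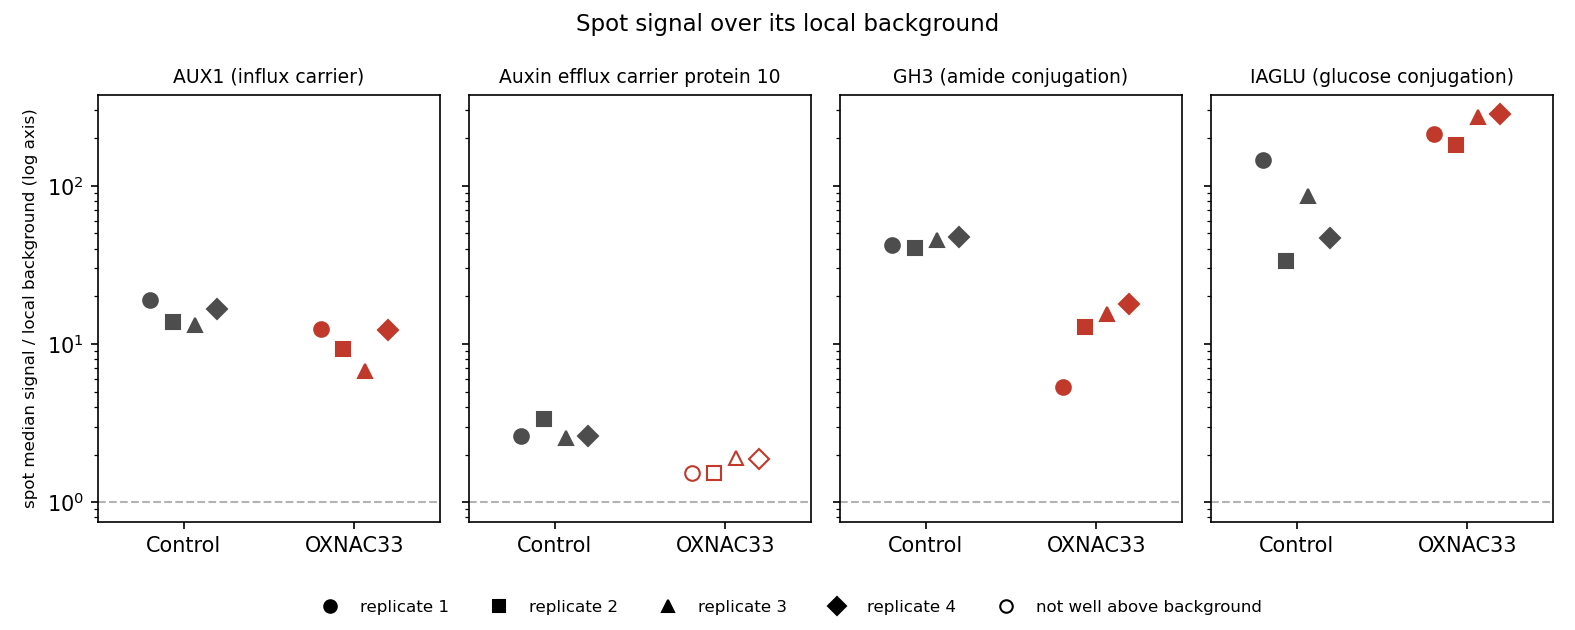
Median signal of each spot divided by its local background, on a log axis, for the 4 genes on each array. The 4 OXNAC33 spots of auxin efflux carrier protein 10 lie between 1.52 and 1.89 and are open, since none was well above background.

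GH3, which conjugates auxin to amino acids, was also lower in OXNAC33. It read -1.47, -1.05, -0.94 and -0.29 on Control replicates 1 to 4 and -4.06, -2.21, -2.69 and -2.13 on OXNAC33 replicates 1 to 4. All OXNAC33 arrays lay below all Control arrays, with a gap of 0.66, and OXNAC33 replicate 1 was the lowest. The means were -0.94 ± 0.49 (SD, n = 4) and -2.77 ± 0.89 (SD, n = 4), which is a difference of -1.83 (SE 0.45), or 3.56-fold lower. Leaving out OXNAC33 replicate 1 brought the difference to -1.40. The spot was well above background on all arrays, at 40.4 to 47.6 times the local background in Control and 5.31 to 17.8 times in OXNAC33. The differences within the 3 scan dates were close to each other, at -1.87, -1.75 and -1.83.

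IAGLU, which conjugates auxin to glucose, was the one gene of the 4 with a higher level in OXNAC33. On Control replicates 1 to 4 it read 0.84, -1.06, 0.80 and -0.07, and on OXNAC33 replicates 1 to 4 it read 2.35, 1.95, 2.08 and 1.88. The OXNAC33 arrays lay close together and above all Control arrays, which were spread over a wide range with replicate 2 lowest. Means were 0.13 ± 0.89 (SD, n = 4) and 2.06 ± 0.21 (SD, n = 4), a difference of 1.94 (SE 0.41), or 3.83-fold higher. Without Control replicate 2 the difference was 1.54. The gap between the groups, 1.04, was the widest of the 4 genes. The spot median was 33.2 to 145 times the local background in Control and 180.0 to 282 times in OXNAC33, and no spot was saturated. Within scan dates IAGLU was higher by 2.26, 1.29 and 1.95.

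Thus both conjugation genes differed in opposite directions on the same arrays, and both carriers were on the lower side. All 4 genes had groups that do not overlap, the efflux carrier with its dim spots. They were picked on their difference between the groups, so that is a description only. Such groups occurred for 2.37% of the probes tested in the higher direction and for 1.75% in the lower direction. Array by array the genes did not follow one order. Among the OXNAC33 arrays, replicate 3 was lowest for AUX1 and replicate 1 for GH3, and the spots of the efflux carrier, all too dim, have no order. In Control, replicate 4 was highest for AUX1 and GH3 but not for the efflux carrier, which was highest on replicate 2, nor for IAGLU, which was highest on replicate 1. Without OXNAC33 replicate 4 the differences were -0.90 for AUX1, -2.03 for the efflux carrier, -2.05 for GH3 and 2.00 for IAGLU.

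Spread within groups was above the median of the array for all 4 genes. The residual SD was 0.45 for AUX1, 0.81 for the efflux carrier with its dim spots included, 0.72 for GH3 and 0.65 for IAGLU, against a median of 0.39 over all probes tested, and 59.0%, 86.0%, 81.9% and 77.9% of the probes had a smaller one. Scan date had not been used in picking the genes and could be tested. Genes picked on a difference between the groups may leave less room for an effect of scan date, however, so the shares of all probes are not an independent comparison. In a limma model with group and scan date, the adjusted p of scan date was 0.346 for AUX1, 0.372 for GH3 and 0.763 for IAGLU, so that 0 of these 3 passed at 0.05, where 7.61% of all probes did. The efflux carrier is left out, as its OXNAC33 spots were too dim. At an unadjusted 0.05 the count was also 0 of the 3, where 29.7% of all probes passed. Over the whole array, 12.8% of the probes were lower and 15.3% higher in OXNAC33 on all 3 dates.

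**Figure D3:**
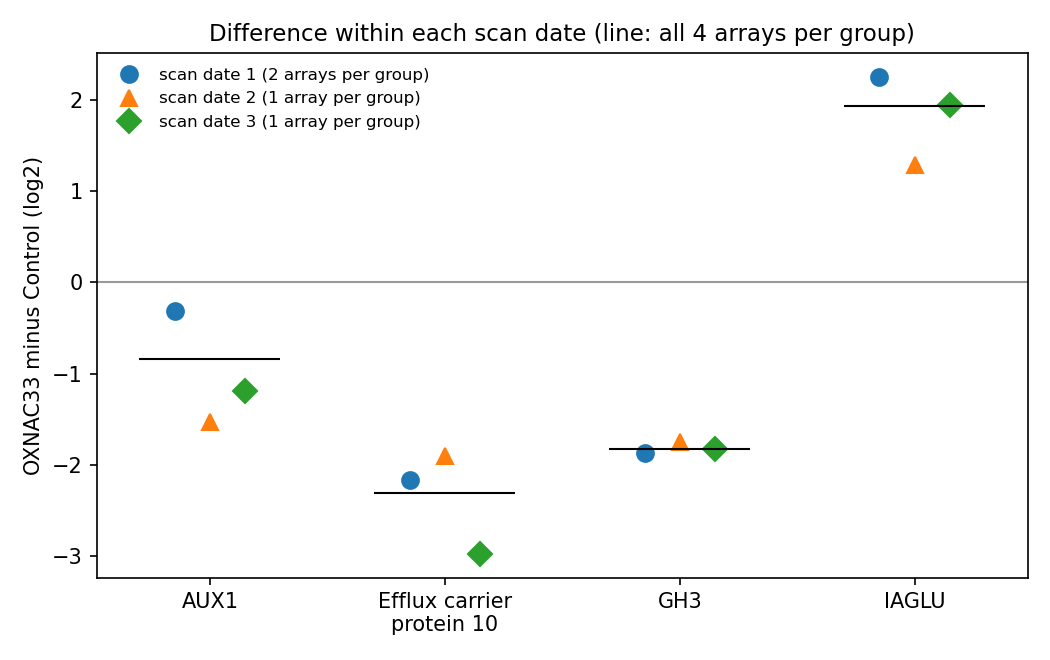
OXNAC33 minus Control (log2) for each of the 4 genes within each scan date, with 2 arrays per group on date 1 and 1 per group on dates 2 and 3. Lines give the difference over all 4 arrays per group. AUX1 ranges from -0.31 to -1.54, while GH3 stays between -1.75 and -1.87. Values of the efflux carrier rest on OXNAC33 spots that were not well above background.

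The remaining genes of auxin transport and conjugation were taken from a list of 98 auxin genes drawn from the study's tables, 94 without the 4 genes above. Of these, 90 were bright enough to be tested, with 28 higher and 62 lower in OXNAC33 and a median difference of -0.48, beside 0.04 over all probes. None passed limma after adjustment over all probes (0 of 90, and 0% of the array). At an unadjusted p under 0.05 there were 25 (27.8%, beside 7.79% of the array), of which 4 were higher and 21 lower, where 3.97% and 3.82% of the array were. The methods' t-test gave 13. Requiring 1.5 fold as well left 3 higher and 20 lower, that is 3.33% and 22.2% of the genes tested, beside 2.42% and 3.1% of the array. The study had listed 19 of the 90 for their change on these same arrays, so their direction is not independent evidence. These had 13 of the 20 lower calls and a median of -1.08. The other 71 were listed for a change under stable VviNAC33 overexpression, for binding by VviNAC33 or for co-expression with it. They are therefore not an unselected set either. Their median was -0.28, with 3 higher and 7 lower calls, or 4 and 15 with a replicate block. With that block the calls over the 26579 probes tested also rose, to 1040 higher and 1317 lower. Over the 90 genes the lower calls were 28 with the replicate block and 9 with slide as a random block. Without OXNAC33 replicate 4 the lower calls over the 90 genes were 38, and without Control replicate 4 they were 8. The share of the array was not counted for the methods' t-test, the slide block or an array left out.

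**Figure D4:**
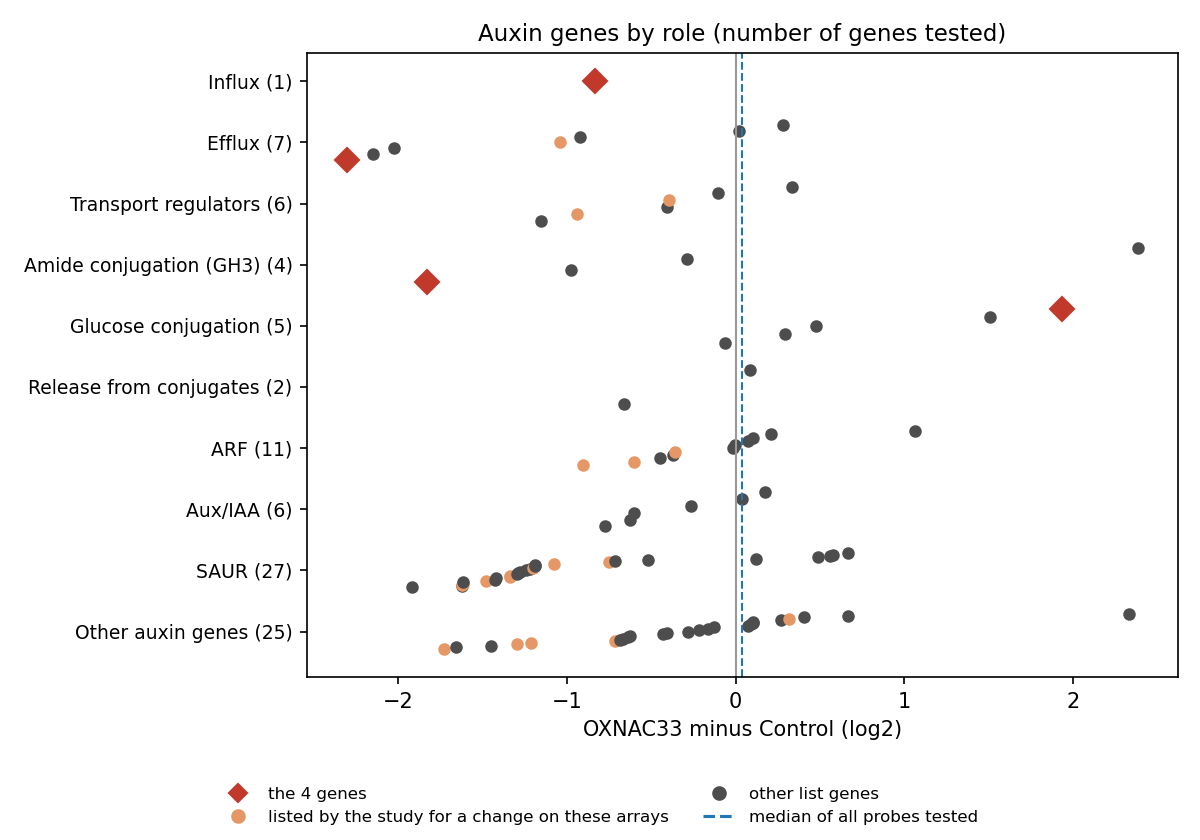
OXNAC33 minus Control (log2) of every tested auxin gene, grouped by role, with the number tested in each role. Diamonds are the 4 genes, orange points are genes the study listed for their change on these arrays, and the dashed line is the median of all probes (0.04). Apart from the 4 genes, 9 of 12 transport genes and 4 of 9 conjugation and release genes lie below 0, as do 45.3% of all probes tested.

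Among the transport genes and their regulators, 12 of 14 were tested, 3 higher and 9 lower, with a median of -0.66, where 45.3% of all probes were lower. The study had listed 3 of the 9 for their change on these arrays. None passed the adjustment. The calls at an unadjusted p under 0.05 with 1.5 fold were 0 higher and 2 lower, beside 2.42% and 3.1% of the array. Both lower calls were genes that the study had listed on these arrays, so they are not independent evidence. With a replicate block 5 were lower, beside 1317 of the 26579 probes tested. The transport gene with the lowest p was an efflux carrier annotated as PIN3 (VIT_17s0000g02420), 1 of the genes so listed. It read -2.75, -2.35, -2.42 and -2.58 on Control replicates 1 to 4 and -3.54, -3.84, -3.95 and -2.94 on OXNAC33 replicates 1 to 4. Its groups did not overlap, and the difference was -1.04 (SE 0.24, limma adjusted p = 0.622). A second gene with the PIN3 annotation (VIT_01s0011g04860) differed the other way, by 0.28 (SE 0.20), and its groups overlapped.

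The remaining efflux carriers were read less firmly. PIN8 (VIT_14s0108g00020), which in Arabidopsis sits in the endoplasmic reticulum, was above background on 4 Control and 2 OXNAC33 arrays. Its level was -4.49, -4.71, -4.37 and -3.41 in Control and -8.80, -6.84, -5.21 and -4.23 in OXNAC33, a difference of -2.03 (SE 0.89, limma adjusted p = 0.633). The groups overlapped, since OXNAC33 replicate 4 lay above 3 Control arrays. Auxin efflux carrier protein 8 (VIT_04s0023g00320), above background on 3 arrays of each group, was scattered, from -7.59 to -0.20 in Control and from -9.13 to -2.85 in OXNAC33, and its difference of -2.15 (SE 1.84) was little larger than its error. The efflux carrier VIT_08s0056g00310 differed by 0.02 (SE 0.19), and VIT_11s0052g00440 was above background on 0 arrays.

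Genes that act on the carriers were part of the same list. Of 3 genes annotated as the PINOID-binding protein PBP1, VIT_15s0046g00070 differed by -1.15 (SE 0.52), VIT_02s0012g00640 by 0.34 (SE 0.82), and VIT_02s0012g00650 was above background on 1 Control array. Both genes annotated as PINOID, a kinase that in Arabidopsis phosphorylates efflux carriers, differed little, by -0.10 (SE 0.16) for VIT_06s0061g01560 and -0.40 (SE 0.40) for VIT_10s0003g04320.

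All 9 other genes of conjugation and release were tested, 5 higher and 4 lower, with a median of 0.08. The difference between this set and the transport genes was not tested. None passed the adjustment, and 2 were higher at an unadjusted p under 0.05 with 1.5 fold, as were 2.42% of the array. Neither had been listed by the study on these arrays, and 1 was an amide synthetase and 1 a glucosyltransferase. The first was listed for binding by VviNAC33 and the second for co-expression with it. The amide synthetase GH3.2 (VIT_07s0129g00660) read -5.38, -6.69, -7.70 and -6.54 in Control and -4.04, -4.58, -5.53 and -2.62 in OXNAC33. It was above background on 2 Control and 4 OXNAC33 arrays, and the groups overlapped between Control replicate 1 and OXNAC33 replicate 3. The measured difference was 2.39 (SE 0.67, limma adjusted p = 0.633). It was 1.73 on scan date 1, the one date on which its Control spots were above background. It was thus opposite in sign to that of the GH3 gene VIT_07s0005g00090.

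The other 2 amide synthetases lay on the lower side. VIT_19s0014g04690 differed by -0.97 (SE 0.60), with OXNAC33 replicates 2 and 3 at -3.61 and -3.54 and the remaining OXNAC33 arrays at -1.15 and -1.37, inside the Control range of -1.87 to -1.14. The GH3-like gene VIT_12s0059g01870 differed by -0.29 (SE 0.24). The 4 GH3-type genes thus did not share a direction.

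A second indole-3-acetate glucosyltransferase, VIT_08s0040g01520, was higher in OXNAC33. It read -1.71, -2.84, -3.11 and -3.03 in Control and -0.25, -1.29, -1.24 and -1.87 in OXNAC33, so that only Control replicate 1 reached into the OXNAC33 range. The difference was 1.51 (SE 0.42, limma adjusted p = 0.633), and on the scan dates it ran from 1.16 to 1.87. A further pair with this annotation, VIT_05s0094g01010 and VIT_05s0094g01020, differed by 0.48 (SE 0.48) and 0.29 (SE 0.48), and VIT_06s0004g07220 by -0.06 (SE 0.64). Of the genes that free auxin from conjugates, an auxin-induced beta-glucosidase (VIT_07s0005g01300) differed by -0.66 (SE 0.57) and the amino acid hydrolase ILR1 (VIT_08s0007g02770) by 0.08 (SE 0.22).

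Auxin response genes are given for comparison. The SAUR genes had the lowest median, -1.25 over 27 tested, with 5 higher and 22 lower and 0 higher and 10 lower calls at an unadjusted p under 0.05 with 1.5 fold, beside 2.42% and 3.1% of the array. The study had listed 8 of the 27 for their change on these arrays, and 5 of the 10 calls were among the other 19. Those 19 were listed for a change under stable VviNAC33 overexpression or for binding by VviNAC33. The strongest differences were -1.92 (SE 0.85) for VIT_04s0023g00490 and -1.62 (SE 0.64) for VIT_03s0038g01280. Many SAUR genes carry neighbouring identifiers and are alike in sequence, so that their probes may not part them. Their median distance from the Control mean was -2.58 on OXNAC33 replicate 3 and -0.19 on OXNAC33 replicate 4. The 6 Aux/IAA genes had a median of -0.43 with 0 calls, and IAA19 (VIT_09s0002g05150) and IAA9 (VIT_09s0002g04080) differed most, by -0.77 (SE 0.59) and -0.62 (SE 0.32). The 11 auxin response factors had a median of -0.02, with ARF4 (VIT_06s0004g03130), listed by the study on these arrays, at -0.91 (SE 0.32) and an ARF2 (VIT_07s0104g01230) at 1.07 (SE 1.52). Outside these families the auxin-binding protein ABP19 (VIT_18s0086g00590) stood at 2.33 (SE 0.85) and the auxin-induced protein 6B (VIT_04s0023g00540), also so listed, at -1.73 (SE 0.71). None of these passed the adjustment.

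IAGLU lies in a run of consecutive identifiers, and the next one up, VIT_06s0004g07240, had a similar difference. This gene, annotated as a UDP-glucosyl transferase, was itself listed by the study for its change on these arrays. It read -3.42, -5.67, -4.81 and -5.49 in Control and -2.45, -3.43, -2.88 and -2.39 in OXNAC33. The groups overlapped narrowly, between Control replicate 1 and OXNAC33 replicate 2. The difference was 2.06 (SE 0.50, limma adjusted p = 0.633), and 1.60, 1.92 and 3.10 on the 3 scan dates. The next, VIT_06s0004g07250, was above background on 1 Control and 3 OXNAC33 arrays. Its measured difference was 1.97 (SE 1.01), and on scan date 2 neither of its spots was above background.

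On the other side of IAGLU, VIT_06s0004g07220 and VIT_06s0004g07210 differed by -0.06 (SE 0.64) and 0.11 (SE 0.91). Scan date passed the limma test for both (adjusted p = 0.0281 and 0.0381). The 11 identifiers within the same distance of the other genes gave no such run. Their differences lay between -0.39 and 0.51, and none passed an unadjusted p of 0.05 among those bright enough to be tested. Whether a probe also reads the transcript of a near-identical neighbour was not tested, because the probe sequences were not used here.

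**Figure D5:**
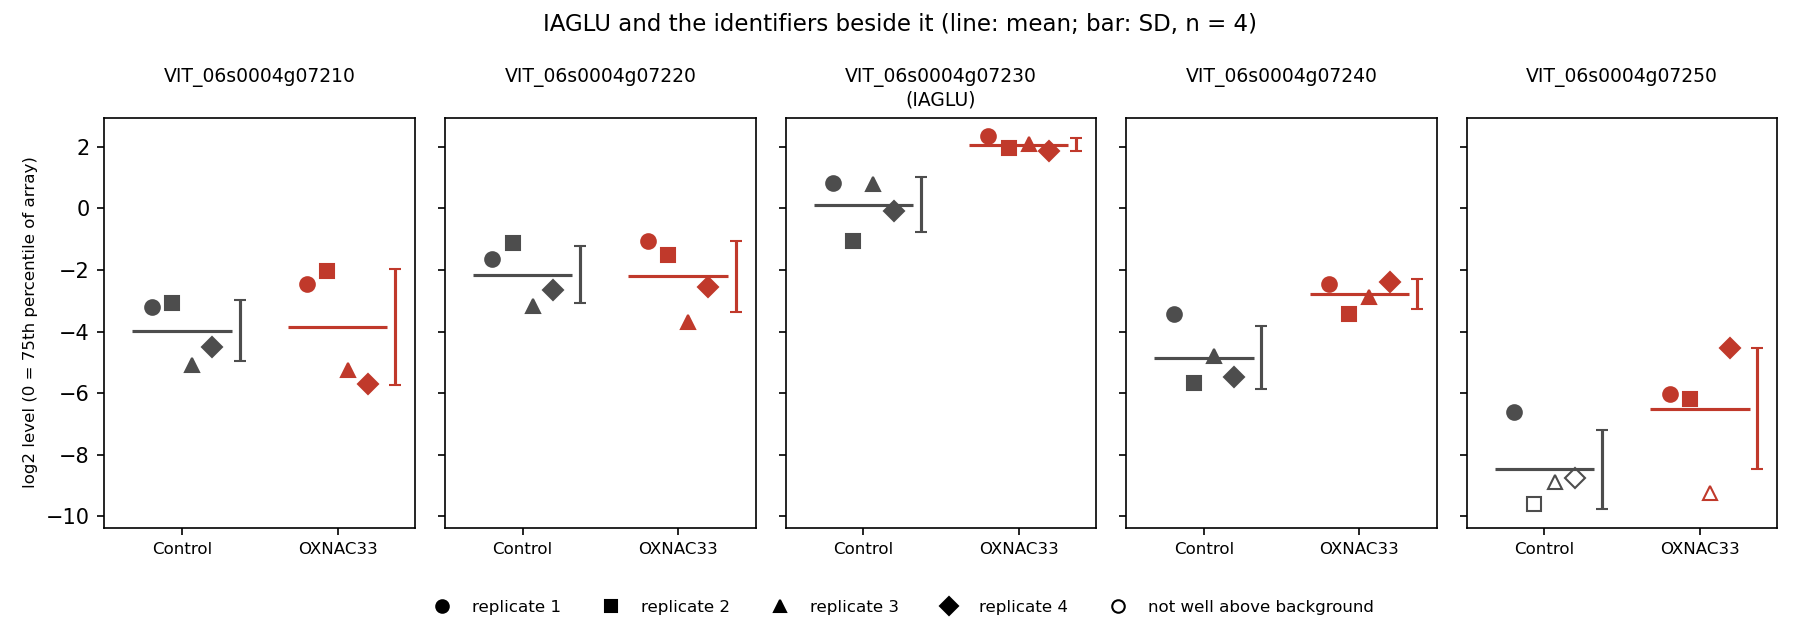
Log2 level on each array of IAGLU and of the 2 identifiers on either side of it, against the 75th percentile on each array. Symbols are replicates, open symbols are spots not well above background, lines are means and bars are SD (n = 4). VIT_06s0004g07240 differs by 2.06, near the 1.94 of IAGLU, while the 2 lower-numbered identifiers differ by -0.06 and 0.11.

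The probes most like each of the 4 genes over the 8 arrays were found among 24162 tested probes with VIT identifiers, by the root mean square difference of levels centred on their own mean. For AUX1 they were VIT_09s0002g01890 and VIT_15s0046g01880, at 0.181 and 0.183, where the median over all candidates was 0.689. For GH3 the nearest, a probe without a name in the study's tables and above background on 0 OXNAC33 arrays, was at 0.302, followed at 0.360 by a light-harvesting protein of photosystem II, LHCII type I CAB-1 (VIT_07s0005g02220), with a median of 1.19. That gene read 5.78, 6.40, 6.61 and 7.19 in Control and 3.81, 4.82, 5.59 and 5.56 in OXNAC33. For IAGLU they were VIT_10s0071g00850, of unknown function, at 0.392 and VIT_12s0055g00340 at 0.484, with a median of 1.17. For the efflux carrier with its dim spots included, the nearest probe, also unnamed, was at 0.779 and the next, a leucine-rich repeat receptor-like kinase (VIT_04s0079g00240), at 0.813, with a median of 1.41. These are resemblances over 8 arrays that share 2 groups and 3 scan dates.

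Among markers of what a leaf sample can hold, all 5 photosynthesis genes were above background on all arrays. Their summed level on the linear scale was 51.8 to 64.8 times the 75th percentile in Control and 34.9 to 52.7 times in OXNAC33, lower in OXNAC33 with a slight overlap. The brightest of them, PSAO, with mean log2 levels of 5.55 and 5.13, and PsbP were listed by the study for their change on these arrays, and ATPC1 differed the other way, by 0.35 (SE 0.34). The sums of 6 markers of dividing cells ran from 66.6 to 80.6 and from 50.9 to 97.0, and those of 6 woody stem markers from 0.903 to 1.57 and from 0.838 to 2.33. Such sums follow the brightest genes and hide single ones. Cyclin A2;3 was above background on 2 Control and 0 OXNAC33 arrays. CESA4 differed by -0.60 (SE 0.31), but laccases VIT_18s0122g00690 and VIT_18s0117g00450 by 1.13 (SE 0.59) and 1.01 (SE 0.43). None of these markers passed the adjustment. Of the woody stem markers 1 laccase was above background on 0 arrays, and the defining xylem cellulose synthase CESA4 was detected on all 8. The part of these markers in the differences of the 4 genes was not tested.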

How the data were processed

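Custom grapevine arrays were read with 1 dye (Cy3). Per the file headers, the authors used Agilent Feature Extraction 10.5.1.1, and the deposited intensity of each spot is linear, background-subtracted and not scaled between arrays. Other deposited marks (0 or 1) give spots well above background, positive and significant, outlying or saturated. A second deposited table holds linear intensity for 24631 probes. It equals the processed intensity times 1 factor per array, with medians of 695 to 764, and was used as an alternative.

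Values were log2(processed intensity) after division by the 75th percentile on that array. The 140 outlying spots were left out, and 0 were saturated. Probes well above background on at least 4 of 8 arrays were tested with limma 3.58.1 in R 4.3.3 (lmFit, eBayes, two-sided, Benjamini-Hochberg over 26579 probes). The fit was also run on simulated data with independent noise of capped SD and no slide or scan date effect. That run checks the code only. Figures were drawn with matplotlib 3.10.9. For a probe dim in a whole group, the bound used the higher of its own signal and the lowest signal well above background on each array.

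Groups and replicate numbers came from the sample titles. Same-numbered arrays of the groups shared a scan date, and their deviations from the group means correlated at 0.490, 0.253, 0.496 and 0.102 for replicates 1 to 4. As each was above 0.1, the replicate number served as a block. This does not establish that the numbers pair the arrays. Replicates 2 and 4 correlated more with another number (up to 0.476 and 0.499), and the methods describe no pairing of plants. The methods name separate plants as replicates for OXNAC33 but do not say so for Control, so that p-values measure only the spread between these samples.

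The 4 genes, the list of 98 auxin genes (89 from the auxin table of the study, the rest from its other tables) and the tests were chosen with earlier results of these data known. Names are those of the study, as 0 array identifiers matched the RefSeq table. Genes named are the 4, VviNAC33, those of transport, conjugation and release, the 2 strongest of each response family, identifiers within 2 steps of the 4 and the 2 probes most like each, of which 2 without a name in the study's tables are given by distance only; 3 list genes are counted but not reported here. Alternatives were another background correction (normexp on spot median and local background intensity with an offset of 50, as mean intensity was not used here), scaling, filters, the second table, blocks, array weights, the methods' t-test and each array left out.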

Additional observations from a re-analysis of the deposited data

Results flagged for a closer look

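In 2 of the 68 groups of 4 arrays examined among the 4 genes, VviNAC33, the other reported transport, conjugation and release genes and the neighbouring identifiers, 1 array stood apart from the rest by a larger share of the group's range than Dixon's critical value allows. Chance gives about 1 in 20 such groups, or 3.4 here. Neither concerned AUX1, efflux carrier protein 10, GH3 or IAGLU.

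For the amino acid hydrolase ILR1 (VIT_08s0007g02770) the array was OXNAC33 replicate 4, at -2.01 where the others read -1.70 to -1.66 (0.890 of the range). For the glucosyltransferase VIT_05s0094g01010 it was Control replicate 2, at -2.46 where the others read -1.36 to -1.26 (0.920 of the range). Control replicate 2 was also the lowest Control array for IAGLU, at -1.06.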

How the results depend on the processing

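The differences of AUX1, GH3 and IAGLU kept their direction and moved by less than the SD between replicates under 12 other settings and with each array left out, and lay between -1.05 and -0.61, between -1.86 and -1.40 and between 1.88 and 1.94 under the 12 settings. With 1 array left out they lay between -0.98 and -0.59, -2.05 and -1.40, and 1.54 and 2.18. Efflux carrier protein 10 kept its direction in 10 settings but moved to -0.61 with normexp, -1.08 with dim values raised to the bound and -1.41 with array weights. With 1 array left out it was largest, at -2.70, without OXNAC33 replicate 2. It has no value when a probe must be above background on all arrays, nor in the second deposited table.

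Of the other auxin genes, 25 had an unadjusted p under 0.05, and 13 to 42 with 1 array left out. The number was 38 with scan date as a block, 13 with slide as a random block, 44 with array weights and 13 with the methods' t-test. With 1.5 fold as well, the 3 higher calls became 5 with array weights (2 to 5 with 1 array left out). The 20 lower calls became 9 with the slide, 31 with array weights and 8 with the t-test (8 to 38 with 1 array left out). They were lowest without Control replicate 4 and highest without OXNAC33 replicate 4. With the replicate number as a block there were 4 higher and 28 lower, beside 1040 and 1317 of the 26579 probes tested. The share of the array was not counted for the slide, array weights, the t-test or an array left out. Adjusted calls were 0 except with array weights (7), under which 949 of the 26579 probes tested passed. The weight was 13.0 for OXNAC33 replicate 2 and 0.359 to 1.40 for the others. VviNAC33 passed an unadjusted 0.05 in limma with scan date as a block and with the replicate block, at the same difference of 0.90, and with array weights, at 1.29. With slide as a random block VviNAC33 did not pass, at 0.61. It differed by 0.56 to 1.32 with 1 array left out, and passed without OXNAC33 replicate 4 (1.32), the OXNAC33 array with the lowest VviNAC33 level. The cause of these changes was not tested. Scan date did not pass for AUX1, GH3 or IAGLU under either background alternative. Low signal over background limits the efflux carrier, and the number of arrays limits every value.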
